A study of Mus musculus with 6 samples.

Results

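Immediate early genes are switched on within minutes of a stimulus by factors already present in the cell, without new protein synthesis, and their RNA is short-lived. In neurons they follow calcium entry and kinase signalling, so their RNA is widely read as a trace of recent activity. Atf3, a stress-induced factor of the ATF and CREB family, is low in the resting brain and best known from neurons with injured axons. The genes examined here were the 9 early genes Fos, Fosb, Jun, Junb, Egr1, Arc, Npas4, Nr4a1 and Ier2, and Atf3, taken from the deposited table by their symbols. All 10 were found among 24054 genes, and all 10 entered the test.

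RNA, labelled as from mouse brain, came by the study's methods from the substantia nigra (SN), the midbrain region that holds the dopaminergic neurons lost in Parkinson's disease. The 3 MitoPark mice, labelled PD, carry both Tfam alleles flanked by LoxP sites and Cre at 1 copy of the dopamine transporter gene, so that Tfam, the mitochondrial transcription factor, is deleted in dopaminergic neurons. The 3 littermate controls, by the study's methods, have 1 LoxP Tfam allele and no Cre. These methods name no treatment of either group. Labels give an age of 16 to 17 weeks and a C57BL/6 background for both groups. Since Cre is driven from the dopamine transporter locus, the deletion concerns only the cells in the tissue that use this locus. Each group held 1 mouse with RNA from the Y chromosome and 2 mice with Xist, the RNA of the inactive X. The male mice were littermate control 1 and MitoPark 2.

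Totals ranged from 8140777 to 10528602 expected counts per mouse, so that 3 counts corresponded to 0.285 to 0.368 CPM, the count scaled to the size of the library. Levels below are CPM scaled by the TMM method, which corrects for differences in library composition. Tfam, the targeted gene, was at 40.3, 44.3 and 45.4 CPM among littermate controls 1, 2 and 3, against 32.6 to 33.2 CPM in MitoParks. The groups did not overlap for Tfam. Of the 6 dopaminergic neuron markers, all were detected in every mouse, and Slc6a3, the dopamine transporter gene, spread from 65.2 to 383 CPM among the littermate controls.

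Early genes are known for promoters with cyclic AMP response elements (CRE), to which CREB binds, and CArG boxes, to which serum response factor binds. RefSeq promoter windows of assembly GRCm38.p6, from 250 bases before to 50 bases after a transcript start, were searched for 7 of the 10 genes. These were Fos, Fosb, Jun, Junb, Npas4, Nr4a1 and Atf3. The windows of Fos, Nr4a1 and Atf3 are shown as the typical early gene, the window with the most CRE cores, and the gene that was called below. They lie at chr12:85473640-85473939 (plus strand), chr15:101266596-101266895 (plus strand) and chr1:191183284-191183583 (minus strand). Capitals mark the CRE core TGACG, or CGTCA where it lies on the other strand, and the TATA motif TATAAA on the strand shown.
Fos: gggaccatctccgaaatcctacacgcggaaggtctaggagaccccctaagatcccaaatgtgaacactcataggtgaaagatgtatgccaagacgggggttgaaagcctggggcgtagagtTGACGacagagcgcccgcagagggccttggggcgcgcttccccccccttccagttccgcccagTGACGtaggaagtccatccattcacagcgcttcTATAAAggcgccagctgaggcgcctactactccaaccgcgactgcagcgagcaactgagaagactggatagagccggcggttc
Nr4a1: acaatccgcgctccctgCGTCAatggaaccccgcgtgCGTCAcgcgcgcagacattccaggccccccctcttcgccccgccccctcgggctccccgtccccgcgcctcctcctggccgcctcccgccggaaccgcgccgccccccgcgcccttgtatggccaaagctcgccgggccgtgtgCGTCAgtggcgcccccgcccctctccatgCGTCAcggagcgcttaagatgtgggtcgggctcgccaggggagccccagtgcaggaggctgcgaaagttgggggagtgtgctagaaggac
Atf3: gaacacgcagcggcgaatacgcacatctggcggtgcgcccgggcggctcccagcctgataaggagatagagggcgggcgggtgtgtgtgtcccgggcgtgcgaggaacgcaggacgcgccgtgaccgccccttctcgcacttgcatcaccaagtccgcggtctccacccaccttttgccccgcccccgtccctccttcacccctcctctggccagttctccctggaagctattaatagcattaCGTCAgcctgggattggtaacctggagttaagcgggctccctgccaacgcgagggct

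A CRE core lay in 6 of the 7 windows, where 20.8% of 32851 promoter windows hold one. Fos held cores at positions -129 and -66 and TATAAA at position -33, counted from the first base of the transcript. Nr4a1 held 4 cores and Atf3 held 1, at position -7. The full CRE, TGACGTCA, which contains the core on both strands and so would be counted in both searches, lay in 0 of the 7 windows and in 1.79% of all windows. The CArG box lay in 0 of the 7 windows and in 1.63% of all. These searches cover only the letters of these short windows, and Egr1, Arc and Ier2 were not searched.

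Per kilobase of the longest annotated transcript, Jun was the most abundant of the 10 genes and Atf3 the least in littermate controls. Jun, the partner with which Fos proteins form the AP-1 factor, was at 14.5 ± 0.676 CPM per kilobase in littermate controls (SD, n = 3). Egr1, a zinc finger factor, followed at 6.98 ± 1.98 CPM per kilobase (SD, n = 3). Junb, Fos, Arc and Nr4a1 came next at 5.52, 5.18, 4.99 and 3.82 CPM per kilobase, and each overlapped its neighbour in this order among the 3 littermate controls. Ier2, Npas4 and Fosb were at 1.72, 1.15 and 1.12 CPM per kilobase, again with overlap between neighbours. Atf3 stood below all others at 0.406 ± 0.0323 CPM per kilobase (SD, n = 3), with no overlap with Fosb. In MitoParks, Atf3 was at 1.27 ± 0.554 CPM per kilobase (SD, n = 3) and took place 9, above Fosb at 1.08. Within the AP-1 family, Jund was higher than Jun per kilobase, at 71.0 ± 5.15 in littermate controls (SD, n = 3), while Fosl1 had at most 0.0608 CPM per kilobase in any mouse.

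**Figure D1:**
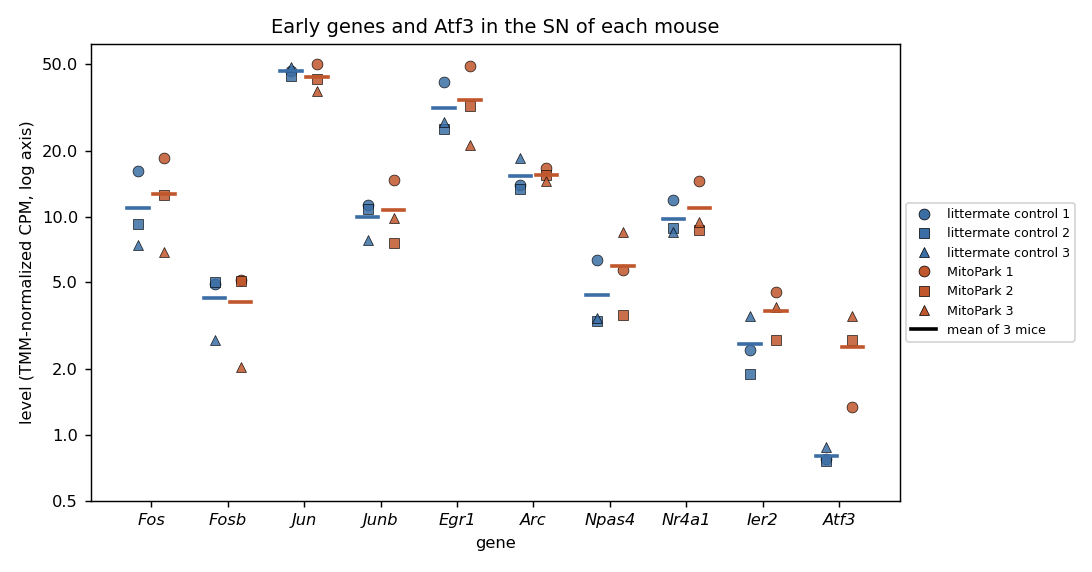
Level of each gene in each mouse, in TMM-normalized CPM on a log axis. Blue symbols are littermate controls, orange symbols are MitoParks, the shape gives the mouse number and bars are means of 3 mice. Atf3 is the one gene whose groups do not overlap, from 0.759 to 0.879 CPM in littermate controls and from 1.34 to 3.51 CPM in MitoParks.

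Fos, the founding early gene and marker of recently active cells, was at 16.1, 9.20 and 7.42 CPM among littermate controls 1, 2 and 3, against 18.5, 12.6 and 6.91 CPM in MitoParks 1, 2 and 3. MitoPark 1 was the highest and MitoPark 3 the lowest of all 6 mice, so the MitoParks enclosed the littermate controls. The fold change of MitoParks over littermate controls was 1.16, with a 95% interval from 0.655 to 2.07 (edgeR, unadjusted p = 0.567, adjusted p = 0.999). Without MitoPark 1, the log2 fold change of Fos was -0.14 in place of 0.22.

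Fosb, whose long-lived splice product builds up under repeated stimulation, was at 4.90, 5.03 and 2.73 CPM among littermate controls, against 5.11, 5.05 and 2.04 CPM in MitoParks. Mouse 3 of each group stood low, and the other 4 mice lay close together. Its log2 fold change was -0.05 (standard error 0.38, 95% interval -0.90 to 0.81). That value was 0.27 without MitoPark 3, 0.07 without littermate control 1 and 0.10 without littermate control 2. Isoforms were not separated in the table.

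Jun was the steadiest of the AP-1 genes, at 46.4, 44.2 and 48.5 CPM among littermate controls, against 50.05, 42.7 and 37.5 CPM in MitoParks. Its log2 fold change was -0.10 (standard error 0.13, 95% interval -0.39 to 0.20). Junb, which can replace Jun in AP-1 and often restrains it, was at 11.3, 10.8 and 7.81 CPM among littermate controls, against 14.7, 7.58 and 9.85 CPM in MitoParks. MitoParks held both the highest and the lowest level of Junb. The log2 fold change of Junb was 0.10 (standard error 0.26, 95% interval -0.49 to 0.68), and it was -0.19 without MitoPark 1 and -0.05 without littermate control 3.

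Egr1 was at 41.5, 25.2 and 27.1 CPM among littermate controls, against 49.0, 32.1 and 21.3 CPM in MitoParks. MitoPark 1 and littermate control 1 were the highest, as they were for Fos. The log2 fold change of Egr1 was 0.13 (standard error 0.29, 95% interval -0.52 to 0.77), and without MitoPark 1 it was -0.22, without littermate control 2 -0.01. The ratio of Egr1 to Fos counts stayed between 2.54 and 3.66 in all 6 mice, while Fos itself differed 2.68-fold between the highest and the lowest mouse.

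Nr4a1, an orphan nuclear receptor, was at 11.9, 8.82 and 8.50 CPM among littermate controls, against 14.6, 8.69 and 9.40 CPM in MitoParks. Again the first mouse of each group was the highest of its group, and the other 4 were close to each other. The log2 fold change of Nr4a1 was 0.16 (standard error 0.24, 95% interval -0.38 to 0.70), and -0.10 without MitoPark 1. Ier2, a small early response protein, was at 2.45, 1.90 and 3.52 CPM among littermate controls, against 4.51, 2.73 and 3.85 CPM in MitoParks. Counts of Ier2 were low, between 20 and 37 per mouse. Its log2 fold change was 0.49 (standard error 0.32, 95% interval -0.24 to 1.21), with 1 littermate control above MitoPark 2 (exact permutation test, p = 0.2).

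Arc and Npas4 are found mainly in neurons. Arc, whose RNA travels to active synapses, was at 13.9, 13.3 and 18.6 CPM among littermate controls, against 16.6, 15.5 and 14.5 CPM in MitoParks, with littermate control 3 the highest. The MitoParks lay closer together for Arc than for any other of the 10 genes. The log2 fold change of Arc was 0.02 (standard error 0.16, 95% interval -0.35 to 0.39). It changed sign, to between -0.07 and -0.02, without littermate control 1, littermate control 2 or MitoPark 1.

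Npas4, a factor induced by calcium entry into neurons and hardly by other stimuli, was at 6.34, 3.32 and 3.42 CPM among littermate controls, against 5.72, 3.54 and 8.49 CPM in MitoParks. MitoPark 3, the lowest mouse for Fos, Fosb, Jun and Egr1, was the highest for Npas4. Npas4 over Fos was 1.23 there, and between 0.280 and 0.461 in the other 5 mice. The log2 fold change of Npas4 was 0.44 (standard error 0.37, 95% interval -0.39 to 1.28, unadjusted p = 0.260), and 0.09 without MitoPark 3. Among the 4 female mice alone, a comparison added after the data were seen, it was 1.09 (unadjusted p = 0.0136, adjusted p = 0.806), while with sex as a term for all 6 mice it was 0.45. Whether the difference between the groups differs by sex was not tested.

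**Figure D2:**
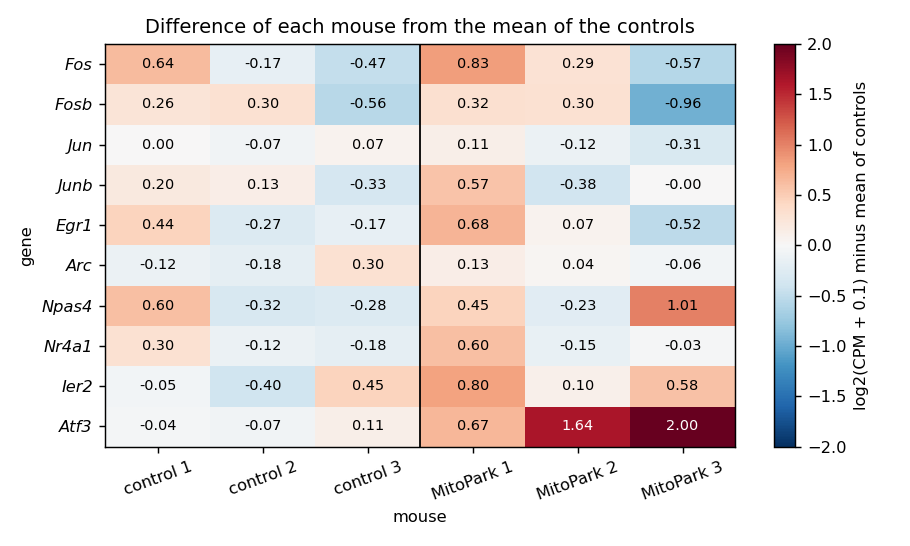
Difference of each mouse from the mean of the 3 littermate controls, on the log2(CPM + 0.1) scale, for each gene. Red is above and blue below that mean. MitoPark 1 is above it for all 10 genes, from 0.11 for Jun to 0.83 for Fos, whereas Atf3 reaches 2.00 in MitoPark 3, where Fos is at -0.57.

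Seen by mouse, the early genes stood highest in MitoPark 1, which had the top level of 7 of the 9 early genes, all but Arc and Npas4. All 9 were above their own mean over the 6 mice there, by 0.43 on average on the log2(CPM + 0.1) scale. Littermate control 1 came next, with 7 of the 9 above their mean and an average of 0.19. The other 4 mice had averages from -0.20 to -0.07. MitoPark 3 held the lowest level of 4 early genes and the highest of 1, Npas4. Among 45 other early genes tested, in contrast, MitoPark 1 was the highest for 8 and the lowest for 8, and their median deviation there was -0.01.

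The early genes also differed more between mice of a group than most genes. Over the 9 genes, the SD of log2(CPM + 0.1) within littermate controls ranged from 0.067 for Jun to 0.573 for Fos, with a median of 0.386, where the median over all 14568 tested genes was 0.168. Within MitoParks it ranged from 0.095 for Arc to 0.737 for Fosb, with a median of 0.479 against 0.188 over all genes. In each group, 8 of the 9 genes were above the median of all genes. The comparison with all genes was not matched by level. Fosb and Ier2 had as few as 18 and 20 counts in a mouse, where counting error adds to the SD.

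Atf3 ranked the mice in another order, with MitoPark 3 highest. Littermate controls 1, 2 and 3 had 7, 8 and 9 counts of Atf3, or 0.779, 0.759 and 0.879 CPM, with a mean of 0.806 ± 0.0642 CPM (SD, n = 3). MitoParks 1, 2 and 3 had 11, 27 and 31 counts, or 1.34, 2.73 and 3.51 CPM, with a mean of 2.53 ± 1.10 CPM (SD, n = 3). Each MitoPark was above each littermate control, with the smallest gap between MitoPark 1 and littermate control 3. The 95% Poisson interval of MitoPark 1, 0.669 to 2.40 CPM, took in the levels of all 3 littermate controls, while those of MitoParks 2 and 3 began at 1.80 and 2.39 CPM. Poisson intervals cover counting error only.

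The fold change of Atf3 was 3.12, with a 95% interval from 1.6 to 6.06 (log2 fold change 1.64, standard error 0.43). The unadjusted p was 0.00365, place 7 among 14568 genes, and the adjusted p was 0.999 by edgeR with the Benjamini-Hochberg correction. The exact permutation test gave p = 0.1, the smallest that 3 mice against 3 allow. Atf3 passed the filter on low values through the MitoParks alone, since its mean before TMM scaling was 0.802 CPM in littermate controls and 2.54 CPM in MitoParks. The log2 fold change was 1.57 among the 4 female mice and 1.64 with sex as a term. Atf3 over Jun, its dimer partner, was between 0.0168 and 0.0181 in littermate controls and 0.0268, 0.0638 and 0.0937 in MitoParks.

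**Figure D3:**
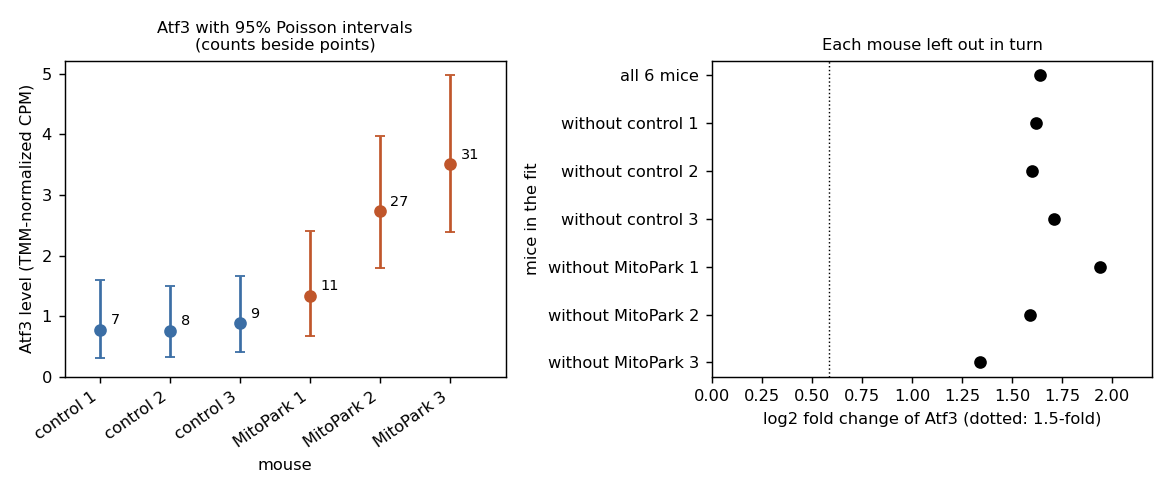
Atf3 in each mouse in TMM-normalized CPM with 95% Poisson intervals and counts beside the points (left), and its log2 fold change with each mouse left out in turn (right). The interval of MitoPark 1 overlaps those of the littermate controls, and the log2 fold change stays between 1.34 and 1.94.

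In the comparison of the groups, a gene was called when its unadjusted p was below 0.05 and its fold change above 1.5. Of the 10 genes, 1 was called, Atf3, and it was higher in MitoParks. The study had already listed Atf3 among the top raised genes of these mice, so this call is not an independent finding. Over all 14568 tested genes, 84 or 0.577% were called, and 55 or 0.378% were called as higher. There were 0 adjusted p-values below 0.05 and 161 unadjusted ones, fewer than evenly spread p-values would give at this cutoff. The number of called genes was 133 without littermate control 1, 219 without littermate control 3 and 217 without MitoPark 2. Of the 9 early genes edgeR, DESeq2 and limma-voom each called 0. Their unadjusted p-values in edgeR lay between 0.165 and 0.899, and 0 were below 0.05. Their 95% intervals, from a fold of 0.534 at the lowest to 2.42 at the highest, leave room for changes of 1.5-fold or more in all but Jun and Arc.

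Littermate controls and MitoParks were fully separated for 1 of the 10 genes, Atf3, while 4.71% of all tested genes had groups that did not overlap. With a mouse left out, the 2 groups separated for further genes, namely Npas4 without littermate control 1, Arc and Ier2 without littermate control 3, Jun without MitoPark 1, Ier2 without MitoPark 2 and Fosb without MitoPark 3. With 3 mice against 2, such a separation is easier to reach, and the share over all tested genes was not computed for these fits.

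**Figure D4:**
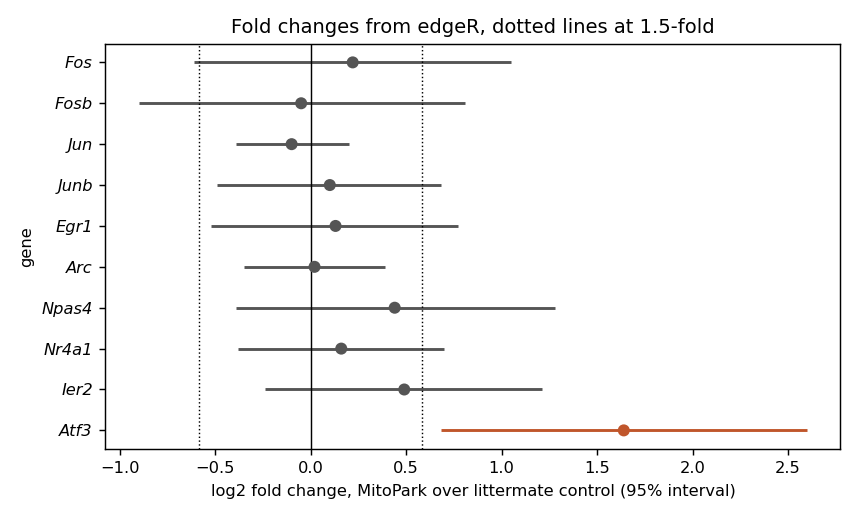
Log2 fold change of MitoParks over littermate controls for each gene, with its 95% interval from edgeR's quasi-likelihood fit. Dotted lines mark 1.5-fold and the orange point is the called gene. The interval of Atf3, 0.68 to 2.60, lies above 0 and those of the other 9 genes include 0.

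The wider early response gave few differences. Of 48 further early genes in the table, transcription factors as well as phosphatases and other effectors, 45 were tested, 18 were higher and 27 lower in MitoParks, and edgeR called 0, none with p below 0.05 before adjustment. DESeq2 called 0 and limma-voom 1. Their median log2 fold change was -0.03, where that of all tested genes was -0.005. The 3 smallest p-values among the transcription factors belonged to Nr4a2, Crem and Csrnp1. Nr4a2, the relative of Nr4a1 that also maintains dopaminergic neurons, was at 25.9, 42.0 and 50.2 CPM among littermate controls, against 7.79, 32.4 and 22.0 CPM in MitoParks. Its log2 fold change was -0.92 (standard error 0.41, unadjusted p = 0.0522), and it was called as lower under several other settings, among them without littermate control 1, without MitoPark 2, with no filter on low counts, among the female mice alone, with limma-voom and with the likelihood ratio test. MitoPark 2 was above littermate control 1 for this gene.

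Crem, a CREB relative with an inducible repressor form, had a log2 fold change of -0.32 (standard error 0.18), and Csrnp1, an early nuclear protein, 0.36 (standard error 0.22). Among the effectors the smallest p-values were those of Ptgs2 (cyclooxygenase), Ier3 and Cyr61, at log2 fold changes of -0.38, 0.17 and 0.23. Egr2, a relative of Egr1 that was too low to be tested, was counted 3, 2 and 0 times among littermate controls and 6, 6 and 5 times among MitoParks.

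The late activity-induced genes, which encode secreted and synaptic proteins and follow the early factors, were mostly lower. Of 14 tested, 3 were higher and 11 lower, with a median log2 fold change of -0.21, and edgeR, DESeq2 and limma-voom each called 0. Of all 14568 tested genes, 51.4% were lower. The 5 general neuron markers were lower too, 5 of 5, with a median of -0.16 and 0 called, and their part in the late genes was not tested. Without MitoPark 3, 6 of the 14 late genes were higher and 8 lower, with a median of -0.02. With any other mouse left out, the median lay between -0.36 and -0.13. Without MitoPark 2, 3 late genes were called as lower, Bdnf, Inhba and Rasgrp1. Adcyap1, which encodes the neuropeptide PACAP, had the smallest p, at 124, 186 and 156 CPM among littermate controls, against 99.4, 135 and 118 CPM in MitoParks. For Adcyap1 the log2 fold change was -0.40 (standard error 0.17, unadjusted p = 0.0382) and did not reach the 1.5-fold cutoff. Rasgrp1 and Rgs4, signalling proteins, were at -0.40 and -0.28 without passing the test.

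Of the 24 upstream kinases and factors, 9 were higher and 15 lower, with a median log2 fold change of -0.05, and 0 were called. Crtc2, a coactivator of CREB, was the one gene of these 24 whose groups did not overlap, a share close to the 4.71% of all tested genes. It was at 17.4, 19.5 and 20.1 CPM among littermate controls, against 25.9, 22.5 and 24.9 CPM in MitoParks. For Crtc2 the log2 fold change was 0.36 (standard error 0.12, unadjusted p = 0.0170), below the 1.5-fold cutoff. Mapk9 and Map2k1, kinases of the JNK and ERK pathways, came next by p, at log2 fold changes of -0.17 and -0.14.

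Genes known to accompany Atf3 in injured or stressed cells were called in 0 of 26 tested cases by edgeR, DESeq2 and limma-voom, and 0 had an unadjusted p below 0.05, with 16 higher and 10 lower and a median log2 fold change of 0.03. Of these, 3 of 26 had groups that did not overlap, where 4.71% of all tested genes did so. Hmox1, the heme oxygenase of the oxidative stress response, was lower, at 5.23, 5.03 and 5.66 CPM among littermate controls, against 4.02, 4.34 and 3.06 CPM in MitoParks (log2 fold change -0.48, standard error 0.23, unadjusted p = 0.0674). Atf5 and Chac1, both of the integrated stress response, had log2 fold changes of 0.22 each, without passing the test. Hspb1, a small heat shock protein whose p came next after that of Atf5, was at -0.46 (standard error 0.30, edgeR, unadjusted p = 0.157), with overlap between the groups. Ddit3, another gene of that response, was at 0.03, and Gap43 and Sox11 of the axon growth programme were at -0.10 and 0.05. Sprr1a, which injured neurons induce with Atf3, was too low to be tested.

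**Figure D5:**
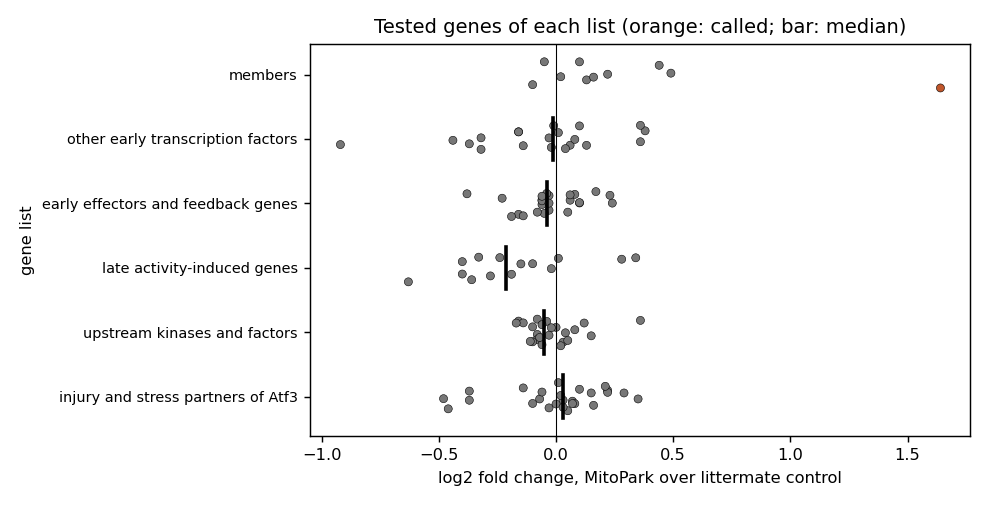
Log2 fold change of MitoParks over littermate controls for each tested gene of each list. Each point is 1 gene, bars are medians, drawn for all lists but the first, and orange marks a called gene. Atf3, at 1.64, is the one called gene among the 6 lists.

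Patterns across mice were compared by the root mean square difference between 2 genes' log2(CPM + 0.1) deviations from their own means over the 6 mice. Of 12021 genes with a mean of at least 5 CPM, the 5 most like Fos were Pgr15l, Dlx2, Egr1, Gpr165 and Camk1g, at differences from 0.174 to 0.192, where Fos itself varied by 0.535. Egr1 was in place 3. Fosb and Ier2, below 5 CPM, were not compared. Nr4a1 was in place 180, Junb in place 1048 and Npas4 in place 10723. Dlx2, a homeobox factor of forebrain inhibitory neurons, was at 6.90, 4.75 and 3.32 CPM among littermate controls, against 9.86, 4.65 and 3.29 CPM in MitoParks, with mouse 1 the highest in each group, as for Fos.

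For Atf3, which varied by 0.823, the 5 most alike were Gfap, Col27a1, Ovgp1, Gm20605 and Itgb2, at differences from 0.476 to 0.502, so none was close. Gfap, the filament protein of astrocytes, was at 192, 171 and 352 CPM among littermate controls, against 255, 355 and 549 CPM in MitoParks (log2 fold change 0.70, standard error 0.32, unadjusted p = 0.0548). Itgb2, an integrin of microglia and leukocytes, was highest in MitoPark 3 too, at 8.38 CPM. Fos was in place 11858 of 12022 by likeness to Atf3. No test was made of these likenesses.

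Cell type markers varied alongside. The 4 astrocyte markers were all higher in MitoParks, their sum ranging from 993 to 1274 CPM in littermate controls and from 1167 to 1557 CPM in MitoParks, and 0 were called. Without littermate control 1, littermate control 3 or MitoPark 3, 3 of the 4 were higher and 1 lower. With any other mouse left out, all 4 were higher. Among the female mice alone, 2 were higher and 2 lower. Without littermate control 3, 2 of the 4, Gfap and Aqp4, were called as higher. Gfap was also called under several other settings, among them without MitoPark 1, with limma-voom and with the likelihood ratio test, but not with DESeq2. Of the 5 microglia markers 4 were higher, with sums of 132.3 to 173.7 CPM and 160.3 to 174.0 CPM, and 0 were called, though for Aif1 the groups did not overlap, with 3.12 to 3.23 CPM in littermate controls and 3.41 to 6.12 CPM in MitoParks, and without MitoPark 1 Aif1 was called as higher. The 6 dopaminergic neuron markers were all lower, with sums of 418.8 to 1407 CPM and 289.0 to 512.2 CPM, and 1, Slc6a3, was called. Slc6a3 is also the gene that carries Cre in MitoParks alone, so for its RNA the allele and the state of the cells cannot be told apart. Littermate control 3 alone held the 1407 CPM, and MitoParks 2 and 3, at 509.0 and 512.2 CPM, were above littermate controls 1 and 2, at 418.8 and 487.0 CPM. Without littermate control 3, 4 of the 6 markers were lower and 2, Th and Aldh1a1, higher. The log2 fold change of Slc6a3 was then -0.97 in place of -2.30, still called. With robust dispersion for all mice, Slc6a3 was not called (edgeR, unadjusted p = 0.0859). Without littermate control 1, and likewise without littermate control 2, 4 of the 6 were called as lower. Neutrophil markers summed to at most 1.22 CPM in any mouse, and all 3 were at 0 in littermate control 2. MitoPark 1, highest for most early genes, had the lowest sum of the dopaminergic markers. Its sums of 5 neuron markers, at 3276 CPM, and of 6 cortical and hippocampal neuron markers, at 31.1 CPM, lay at the lower end of their ranges. Its sum of 6 striatal neuron markers, 156.6 CPM, was the second highest of a range from 120.0 to 166.0 CPM. The sums of 4 oligodendrocyte markers were lowest in littermate control 1 and MitoPark 1, at 6015 and 8275 CPM, and reached 16190 CPM in littermate control 3. The part of these cells in the levels of Atf3 and of the early genes was not tested, and in bulk tissue fewer cells of a type cannot be told apart from less RNA per cell.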

How the data were processed

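Polyadenylated RNA from the SN of 3 MitoParks and 3 littermate controls was sequenced. The authors mapped reads to UCSC transcripts with Bowtie2 2.1.0 and deposited expected counts per gene from RSEM 1.2.15, without normalization. The submitters' notes name the human build hg38, so no coordinates were taken from the table. Columns headed Treat were taken as the mice labelled PD, by number, and 0 columns were left over.

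Expected counts were rounded, and 14568 genes whose mean exceeded 1 CPM in either group were retained. The 2 groups were compared with the quasi-likelihood test of edgeR 4.0.16 (R 4.3.3) after TMM normalization, following the study's cutoffs. The Benjamini-Hochberg adjustment covered these 14568 genes. Exact permutation tests (scipy 1.17.1) were two-sided. The procedure was tested on simulated data. Transcript lengths came from GENCODE M21 and promoters from RefSeq. The genes and lists were chosen with earlier results of these data known. Named were the 10 genes, Tfam, the called genes of each list or, where none was called, those with the 3 smallest p-values, and the 5 genes most like Fos and Atf3. Marker lists are given as sums, and other genes were named after their values were seen. Alternatives used limma 3.58.1 and DESeq2 1.42.0. P-values set the difference between the groups against the spread between these mice. Whether the mice share litters is not known, and within groups no pair differed by as little as sampling noise.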

Additional observations from a re-analysis of the deposited data

How the results depend on the processing

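Atf3 was called under all 18 alternatives, with a log2 fold change from 1.34 to 1.94. With no filter on low counts, 176 genes were called in all and 2 other early genes, Egr2 and Nr4a2. Among female mice alone, added after the data were seen, 309 genes were called. They held 2 of the 10 (Npas4, log2 fold change 1.09, and Atf3), 1 other early gene and 6 late genes. Among these mice 4 of the 10 did not overlap, and Arc was at -0.0293. With 2 mice against 2 such a separation is easier to reach, and the share over all tested genes was not computed there. Of the other early genes, Nr4a2 was the 1 call with the likelihood ratio test, limma-voom or the replicate block. Leaving out each mouse gave 62 to 219 called genes, with 1 of the 10 called. It gave 1 to 3 of the 10 not overlapping, again with no share over all genes. It also gave 0 to 1 other early genes and 0 to 1 partners of Atf3 (Cdkn1a, without littermate control 3) called. Log2 fold changes then ranged from -0.142 to 0.607 for Fos, -0.285 to 0.269 for Fosb, -0.189 to 0.305 for Junb, -0.216 to 0.382 for Egr1, -0.068 to 0.189 for Arc and -0.0963 to 0.331 for Nr4a1. The cause was not tested. Same-numbered mice deviated together for numbers 1 and 3 (correlations of 0.308 and 0.245) but not 2 (-0.073), littermate control 2 did not correlate best with its own number, and the mice share only a number. With the replicate block 126 genes were called in place of 84, and among the lists reported here it added Nr4a2, the late gene Inhba and the markers Chrna6 and Gfap, with no call lost. At 7 to 31 counts per mouse, counting error alone is wide for Atf3.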
